A study of Mus musculus with 12 samples.

Results

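The mouse genes examined here encode sequence-specific mRNA destabilisers: the TTP family genes Zfp36, Zfp36l1 and Zfp36l2, the Pumilio gene Pum2, the Nanos genes Nanos1 and Nanos3, the Roquin genes Rc3h1 and Rc3h2, and Zc3h12a, which encodes the endoribonuclease Regnase-1. The 9 genes were taken by name, and 8 of them were among the 20409 genes of the deposited gene tables. Proteins of this kind bind a short element or a stem-loop, usually in the untranslated region that follows the coding sequence, and shorten the life of the mRNAs that carry it. TTP family proteins bind AU-rich elements, Pumilio proteins bind a short element and act together with Nanos proteins, Roquin proteins bind stem-loops, and Regnase-1 cleaves mRNAs with stem-loops of a similar kind. TTP, Pumilio, Nanos and Roquin proteins are known to recruit the CCR4-NOT complex, the main deadenylase of the cytoplasm, which removes the poly(A) tail.

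The data come from ORFtag screens, which use a retroviral cassette with its own promoter, a resistance gene and a tag followed by a splice donor. Wherever it integrates, its transcript is spliced onto the next downstream acceptor, and the tagged protein is made from its own locus. All 12 libraries were genomic DNA of diploid mouse embryonic stem cells carrying a GFP reporter, and each of the 3 reporter lines was 1 clone. In the post-transcriptional gene regulator (PTGR) screen the tag was λN, which binds boxB hairpins, and the reporter mRNA carried 10 boxB sites after GFP at a random genomic position. The other screens, for transcriptional activators and repressors, used the DNA-binding domain TetR with a nuclear localization signal as the tag, and their reporters, at a fixed locus on chromosome 15, carried 7 TetO sites near the promoter.

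Each screen had 2 unsorted libraries, made from transduced cells after G418 selection, and 2 sorted libraries. The sort took GFP-high cells for activators and GFP-low cells for repressors. For PTGRs, cells low in GFP were enriched over several rounds, Cre then excised boxB from the reporter, and the cells whose GFP rose again were collected. Cassettes of all 3 reading frames were mixed, and the insertion lists do not say which frame an insertion carried. Insertions in genomic DNA carry no expression level, so the identity of the cells could not be checked from marker genes, and neither could the amount of any fusion protein.

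A sense insertion is one that lies on the strand of a gene, at most 200 kb from the exon (never a first exon) whose splice acceptor comes next. The sorted libraries held 60980 and 58560 such insertions in the PTGR screen and between 14705 and 22266 in the other screens, and the unsorted libraries held between 54088 and 233799. A count of 0 in the summed PTGR sorted libraries allows up to 0.251 insertions per 10000, and in the activator and repressor screens up to 0.935 and 0.801 per 10000. These limits, and all standard errors of odds ratios and all intervals below, cover counting error only, because cells that divide before sorting are not independent events. By the study's account the replicates of a screen were biological replicates from independent transductions.

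The acceptor decides which piece of a protein is joined to the tag, so the window of exon 2, which received most insertions of each member found, is printed here, with that of exon 3 of Rc3h1, to which PTGR sorted insertions were assigned. Each window was read from the reference genome (GRCm38.p6, the build called mm10) and runs 5′ to 3′ on the strand of the gene. Lower case letters are the end of the intron and capitals mark the first 10 bases of the exon. Each of these windows ended its intron in AG.
Pum2 exon 2, chr12:8698071-8698100, plus strand: cactttttgttcttcactagGTTTGATCTG
Rc3h1 exon 2, chr1:160929944-160929973, plus strand: ttcctttctctgttttccagGTTATATTTC
Rc3h1 exon 3, chr1:160938092-160938121, plus strand: atatttcttttgttctccagATCCCTGAGC
Zc3h12a exon 2, chr4:125127073-125127102, minus strand: ccctgtggtctggtcaatagGAGCTGTGAT
Nanos3 exon 2, chr8:84173963-84173992, minus strand: cctctgctttcgacttccagGTTCCAAAAG
Zfp36 exon 2, chr7:28378484-28378513, minus strand: ccgaaccctgttcctctcagAGCCTCCAGT
Zfp36l1 exon 2, chr12:80110539-80110568, minus strand: ttctttccctcccctcccagGGTAACAAGA
Zfp36l2 exon 2, chr17:84187147-84187176, minus strand: cgctcccctccctttggcagACGGAGAAAT
Rc3h2 exon 2, chr2:37419458-37419487, minus strand: tgttttgttttgttttgcagTACCGGGGAT

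For Pum2 (ENSMUSG00000020594, chromosome 12, 8674134 to 8752581), Rc3h1 (ENSMUSG00000040423, chromosome 1, 160906418 to 160974978), Rc3h2 and Zc3h12a (ENSMUSG00000042677, chromosome 4, 125118423 to 125127840), splicing into exon 2 leaves 100% of the annotated coding sequence in the fusion. The TTP family genes are short, and their exon 2 carries 97.5% of the coding bases of Zfp36, 94.4% of those of Zfp36l1 and 96.5% of those of Zfp36l2. For Nanos3 (ENSMUSG00000056155, chromosome 8, 84173731 to 84185217) the only acceptor used was that of exon 2, the last exon, from which 65 of the 534 coding bases (12.2%) follow. Nanos1 (ENSMUSG00000072437, chromosome 19, 60755987 to 60759914) has 1 exon in the annotation, as do the relatives Nanos2 and Zfp36l3. A gene with 1 exon has no acceptor outside its first exon, and these 3 genes were not in the gene tables.

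Before any sort, the cassette reached the members very unequally. Over the 6 unsorted libraries together, called the background, Nanos3 had 278 sense insertions and Zc3h12a 235, which placed them above 96.5% and 95.2% of all genes. Pum2 had 98, Zfp36l1 78, Rc3h1 73 and Zfp36 31, all above the median of 15 insertions over all genes. Rc3h2 with 11 and Zfp36l2 with 6 lay below that median.

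The unsorted libraries of the λN cassette (2) and of the TetR cassette (4) were compared with the edgeR quasi-likelihood test to see whether both tags had the same access. Counts of 5 members sufficed for a fit. None passed an adjusted p of 0.05 in edgeR, where 0.254% of all genes fitted did, and 1 member had an unadjusted p below 0.05. This was Zc3h12a, with 3.55 and 2.22 insertions per 10000 in the PTGR unsorted libraries and means of 1.68 ± 0.20 and 2.16 ± 0.18 (SD, n = 2) in those of the activator and repressor screens. Its log2 difference was 0.73 with an adjusted p of 0.309 in edgeR, and 0.17 without PTGR unsorted replicate 1. Tag, reporter line and screen cannot be told apart in this comparison.

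**Figure D1:**
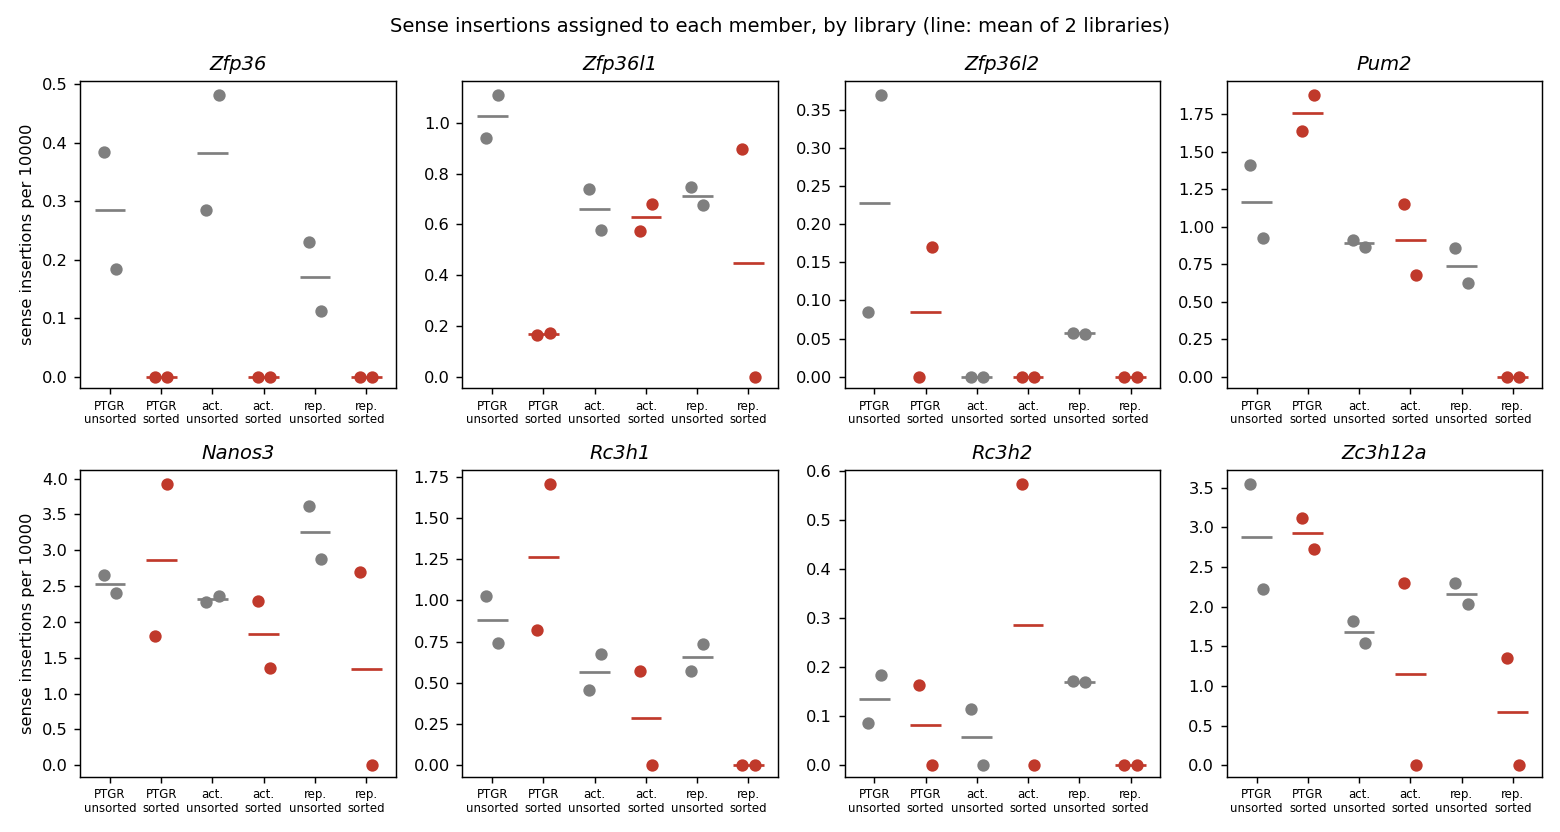
Sense insertions assigned to each of the 8 members per 10000 sense insertions of the library (vertical axis, from 0), for unsorted (grey) and sorted (red) libraries of the PTGR, activator (act.) and repressor (rep.) screens. Points are single libraries and lines are means of 2 libraries. Pum2 is the member with both PTGR sorted libraries above all 6 unsorted ones, and Zfp36 and Zfp36l1 have both below.

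The main question was whether tethering any of these proteins to the reporter mRNA lowered GFP in a way that depended on the boxB sites, which would enrich its insertions in the PTGR sorted libraries. None of the 8 members was called. A call required at least 3 sorted insertions, an adjusted p below 0.001 in a one-sided Fisher's exact test of the summed sorted against the background insertions, and a threshold of 1 on the log2 odds ratio. By this rule 0.666% of the 9303 genes tested were called. Pum2, Rc3h1, Zc3h12a and Nanos3 had enough sorted insertions to be tested, and at an unadjusted p of 0.05 the first 2 of these passed. The median log2 odds ratio of the 4 was 0.58, beside 0.14 over all genes tested. The minimum of 3 sorted insertions left out Zfp36 (0 sorted insertions), Zfp36l1 (2), Zfp36l2 (1) and Rc3h2 (1). This median therefore does not describe the 8 members together. Among the members that edgeR and DESeq2 could fit from the spread between libraries (2 in edgeR), both called 0 at an adjusted p of 0.05, beside 2.48% and 0.6% of genes. Neither gave any member an unadjusted p below 0.05.

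Pum2, one of the Pumilio proteins of the mouse, had the smallest p of the members. Its PTGR sorted libraries held 10 and 11 insertions (1.64 and 1.88 per 10000). The unsorted libraries of the same screen held 33 and 5 (1.41 and 0.924 per 10000), and the 4 unsorted libraries of the other screens lay between 0.622 and 0.912 per 10000. Both sorted values were thus above every unsorted one, which was so for 1 of the 7 members with at least 10 insertions and for 5.1% of the 12615 genes with that many. The log2 odds ratio was 0.87 ± 0.35 (SE), and Fisher's exact test gave an adjusted p of 0.263. Against the 2 unsorted libraries of its own screen it was 0.41 ± 0.39 (SE).

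The genes whose values over the 12 libraries were most like those of Pum2 were Haus1 (Pearson correlation 0.981), Tceanc (0.977) and Mbtps2 (0.977), among 7997 genes with at least 30 insertions. The 12 values are log2 insertions per 10000 with 0.1 added, and share the depth of their libraries. Pum2 had 0 insertions in both repressor sorted libraries, so these values rest on the added 0.1. They lie far below its other values and weigh heavily in the correlations.

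Rc3h1 encodes Roquin-1, which recognises stem-loops in mRNAs of immune regulators. Its PTGR sorted libraries held 5 and 10 insertions (0.820 and 1.71 per 10000) against 24 and 4 (1.03 and 0.740 per 10000) in the unsorted ones. The sorted and unsorted values overlapped. The log2 odds ratio was 0.81 ± 0.41 (SE), and Fisher's exact test gave an adjusted p of 0.428. The log2 odds ratio was 0.39 ± 0.52 (SE) when positions within 10 bp of each other were merged, 0.37 ± 0.46 (SE) against the unsorted libraries of its own screen, 0.20 without sorted replicate 2 and 1.26 without sorted replicate 1.

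Zc3h12a had 19 and 16 sorted insertions (3.12 and 2.73 per 10000) and 83 and 12 unsorted ones (3.55 and 2.22 per 10000), so that both sorted values lay between the unsorted values of the screen. Its log2 odds ratio was 0.35 ± 0.26 (SE), and Fisher's exact test gave an adjusted p of 0.583. Against its own unsorted libraries the value was -0.17 ± 0.29 (SE). Nanos3, a germ cell gene whose product acts with Pumilio proteins, had 11 and 23 sorted insertions (1.80 and 3.93 per 10000), on either side of all 6 unsorted values, which ran from 2.28 to 3.61. Its log2 odds ratio was 0.06 ± 0.26 (SE), and the 95% interval from -0.45 to 0.58 lies below the threshold of 1. The value was 0.53 without sorted replicate 1 and -0.59 without sorted replicate 2, and every Nanos3 insertion was assigned to exon 2, from which 12.2% of the coding sequence follows.

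**Figure D2:**
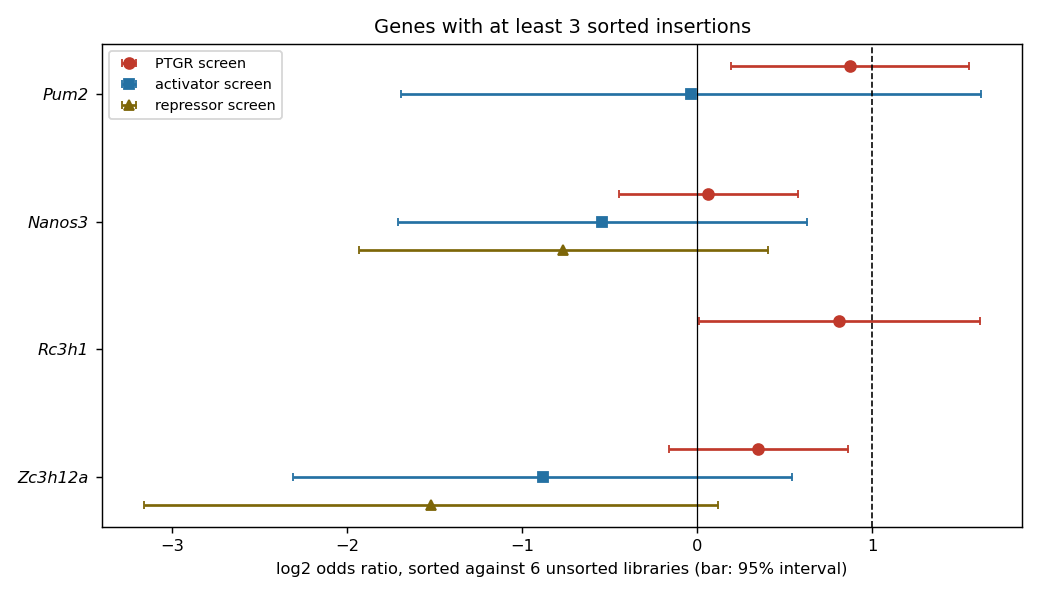
Log2 odds ratio of sorted against background insertions (horizontal axis, points) with 95% intervals from counting error (bars) for members with at least 3 sorted insertions, by screen. The dashed line is the threshold of 1 and the solid line marks 0. The 4 PTGR values lie between 0.06 and 0.87, and the activator and repressor values lie below 0. The medians over all genes tested were 0.14, -0.14 and -0.39 in the PTGR, activator and repressor screens. Members with fewer than 3 sorted insertions in a screen are not shown for it.

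Zfp36 and Zfp36l1, of the TTP family, had fewer sorted insertions than the background predicted. Zfp36 encodes TTP (tristetraprolin) itself and had 0 insertions in both PTGR sorted libraries, where 3.63 were expected from its background rate of 0.303 per 10000. That rate is above the limit of 0.251 that a count of 0 allows, but the 95% interval of the odds ratio, which reaches 1.08, includes 1. Zfp36l1, its close relative, had 1 and 1 sorted insertions (0.164 and 0.171 per 10000), while the 6 unsorted libraries ran from 0.578 to 1.11 with a total of 78. Both sorted values were below every unsorted one for these 2 of 7 members, and for 7.85% of the 12615 genes. In a two-sided Fisher's exact test, in which 0.111% of genes were called lower and 0.499% higher, no member passed, and Pum2 and Zfp36l1 were the 2 members with an unadjusted p below 0.05. Zfp36l1 had a log2 odds ratio of -2.19 ± 1.03 (SE) and p-values of 0.0159 before and 0.350 after adjustment, and Zfp36 of 0.0705 and 0.601 in the same exact test. The PTGR unsorted libraries alone held 28 insertions of Zfp36l1 and 10 of Zfp36. With these libraries as the background, the two-sided exact test called 0 of 6 members, beside 50 of all genes. An unadjusted p below 0.05 was then found for 2 members. Zfp36l2, with 1 sorted insertion against 6 in the background, and Rc3h2, which encodes Roquin-2, with 1 against 11, were too rarely hit to compare.

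How many insertions a call would have taken follows from the background counts. With the largest unadjusted p that passed in the PTGR screen, 6.1e-06, Pum2 would have needed 32 sorted insertions where 21 were found and 11.5 were expected. Rc3h1 would have needed 27 (15 found), Zc3h12a 56 (35 found), and Nanos3 66 (34 found). Zfp36 and Zfp36l1 would have needed 17 and 28, and Rc3h2 and Zfp36l2 would have needed 11 and 9. For Zfp36l2 that is a log2 odds ratio of at least 3.68, so a weaker enrichment was not detectable at this depth.

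**Figure D3:**
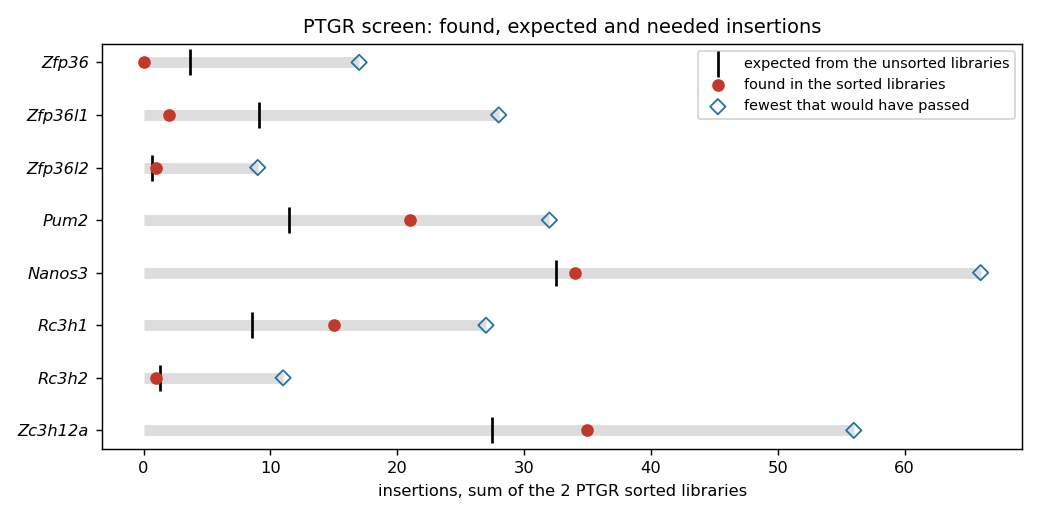
Insertions in the 2 PTGR sorted libraries together (horizontal axis, count) for each of the 8 members. Red points are the numbers found, vertical ticks the numbers expected from the background, and diamonds the fewest that would have been called. As a share of the number needed, the nearest approach was Pum2, with 21 of 32, followed by Zc3h12a, with 35 of 56. The background alone predicted 11.5 for Pum2 and 27.5 for Zc3h12a, so this share is not a measure of enrichment.

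Where the insertions lay differed between members. In the background, the median distance to the assigned exon was 2275 bp for Zfp36, 10307 bp for Nanos3, 11033 bp for Zc3h12a, 28946 bp for Zfp36l1, 132650 bp for Pum2 and 194624 bp for Rc3h1. Of the 98 Pum2 background insertions 87 were upstream of the annotated gene and 22 inside the neighbouring gene Slc7a15, and among the 21 sorted ones these numbers were 18 and 3. Pum2 sorted insertions had a median distance of 115415 bp, and all but 1 were assigned to exon 2.

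For Rc3h1 the sorted and background insertions were spread differently. Of the 73 background insertions 60 lay inside the neighbouring gene Rabgap1l and 63 were over 50 kb away, while 6 of the 15 sorted ones were in Rabgap1l and 9 were within 50 kb. Exon 3 was the assigned exon of 6 sorted insertions (2 from replicate 1 and 4 from replicate 2) and of 0 of the 73 background insertions. These 6 formed 3 pairs of neighbouring positions at distances of 4233, 2144 and 987 bp from the exon, each pair within 1 library. From exon 3 onward 93.2% of the coding sequence follows. Of the 6 sorted positions in Rabgap1l, 4 lay within 10 bp of each other in replicate 2, at 195983 to 195989 bp from exon 2.

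With insertions restricted to 50 kb, a limit planned as an alternative, Rc3h1 had 9 sorted insertions against 10 unsorted ones. The log2 odds ratio was then 2.93 ± 0.66 (SE), and Fisher's exact test gave an adjusted p of 0.00527, short of the threshold of 0.001, by which 0.838% of 7037 genes were called. At an adjusted p of 0.05, a threshold added after seeing the data at this distance, Rc3h1 was the 1 member called, as were 1.44% of genes. With positions within 10 bp merged as well, 6 sorted insertions remained against 10, the log2 odds ratio was 2.36 ± 0.75 (SE) and the adjusted p was 0.176. With the background limited to the PTGR unsorted libraries, also within 50 kb, the log2 odds ratio was 2.44 ± 0.87 (SE), with an adjusted p of 0.250 in the exact test, which ends that call. Leaving out PTGR sorted replicate 2 gave an adjusted p of 0.146, and leaving out replicate 1 gave 0.0331.

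**Figure D4:**
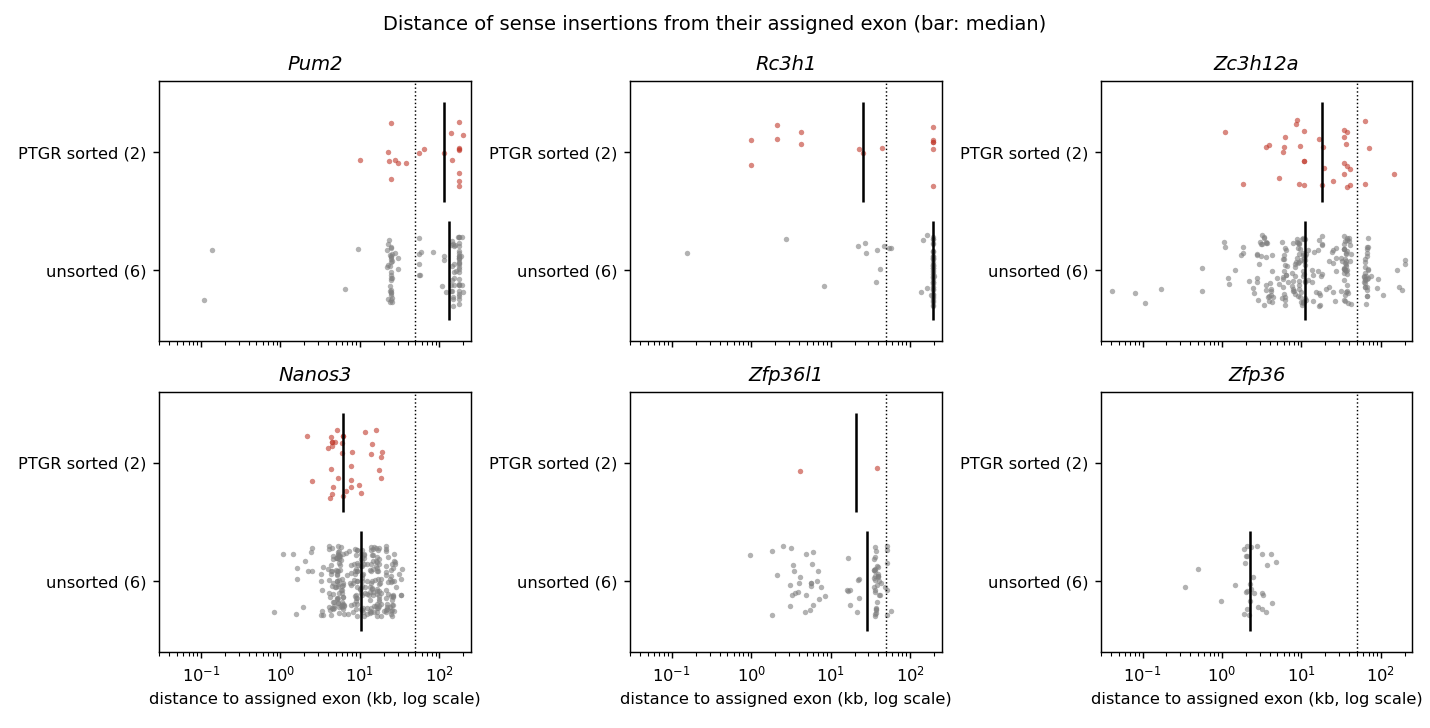
Distance from each sense insertion to its assigned exon (horizontal axis, kb, log scale) in the 6 unsorted and the 2 PTGR sorted libraries for 6 members, of which Zfp36 has no PTGR sorted insertion. Points are insertions, scattered vertically for legibility, black bars are medians and the dotted line marks 50 kb. For Rc3h1 the median was 194624 bp in the background and 25916 bp in the sorted libraries.

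Nanos3 sorted insertions lay nearer the exon as well, with a median of 6089.5 bp (34 insertions) against 10307 bp in the background. Those of Zc3h12a lay farther away, with a median of 18405 bp against 11033 bp, and all 35 were assigned to exon 2, while 22 of 235 background insertions were assigned to exon 3. Positions are not replicates, and these differences were not tested. Of the sorted positions, 6 of 21 for Pum2, 1 of 15 for Rc3h1, 5 of 35 for Zc3h12a, 8 of 34 for Nanos3 and 2 of 2 for Zfp36l1 were also present at the same base in an unsorted library. None of these members had a position shared by both PTGR sorted replicates.

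An insertion on the opposite strand cannot splice its tag into the gene, and the reversed assignment, which counts such insertions, served as a comparison. No member was enriched by it in any screen, where 0.5%, 3.14% and 5.61% of tested genes were called in the PTGR, activator and repressor screens. In the background, sense insertions made up 50.2% of all insertions counted in both ways, and 50% of those of Rc3h1 (73 and 73). In the PTGR sorted libraries Rc3h1 had 15 sense and 1 reversed insertions, a sense share of 93.8% with a 95% Wilson interval of 71.7 to 98.9%. That interval takes each position as independent, but the 15 sense positions became 9 when those within 10 bp were merged, so it is too narrow. The unsorted libraries of the same screen alone held 28 sense and 8 reversed insertions of this gene. The sense share of Pum2 was 67.7% (50.1 to 81.4%) after sorting and 52.7% (45.5 to 59.7%) in the background. In the PTGR unsorted libraries alone it was 61.3% (38 sense and 24 reversed). For Zc3h12a the share was 40.2% after sorting, 45.8% in the background and 43.8% in the PTGR unsorted libraries. Its reversed insertions, the 1 set of a member with an unadjusted p below 0.05 in these tests, had a log2 odds ratio of 0.69 ± 0.22 (SE). Fisher's exact test gave them an adjusted p of 0.0871. Zfp36l1 had 2 sense and 8 reversed insertions after sorting, a share of 20% (5.67 to 51%). The share was 59.1% (50.6 to 67.1%) in the background and 65.1% in the PTGR unsorted libraries.

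**Figure D5:**
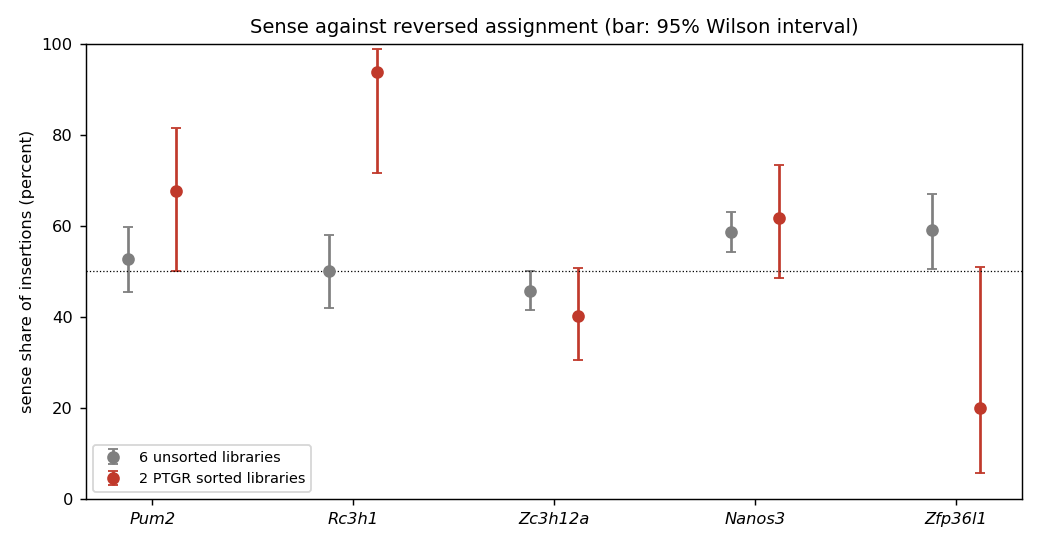
Sense insertions as a percentage of sense and reversed insertions (vertical axis, 0 to 100) in the 6 unsorted (grey) and the 2 PTGR sorted (red) libraries, for 5 members. Bars are 95% Wilson intervals from counting error only. The dotted line marks 50%. Rc3h1 has the highest sorted share, 93.8%, and Zfp36l1 the lowest, 20%.

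In the activator and repressor screens, where the tag brings a protein to DNA, none of the members was called either, while 4.64% of 2842 and 8.18% of 2346 tested genes were. At an unadjusted p of 0.05 in the one-sided Fisher's exact test no tested member passed in these screens, and edgeR and DESeq2 gave no member an adjusted or unadjusted p below 0.05. In the activator screen 4.07% of genes passed in edgeR and 2.64% in DESeq2, and in the repressor screen 8.35% and 4.83%. In the activator screen Pum2 had 2 and 1 sorted insertions, Nanos3 4 and 2, and Zc3h12a 4 and 0, with log2 odds ratios of -0.04 ± 0.85, -0.54 ± 0.60 and -0.88 ± 0.73 (SE). The median of these 3 was -0.54, beside -0.14 over all genes tested. In the repressor screen Nanos3 had 6 and 0 sorted insertions and Zc3h12a 3 and 0, with log2 odds ratios of -0.76 ± 0.60 and -1.52 ± 0.84 (SE) and a median of -1.14, beside -0.39 over all genes tested.

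Pum2 and Rc3h1 had 0 sense insertions in both repressor sorted libraries, where 3.59 and 2.68 were expected. Zfp36 had 0 in all 6 sorted libraries, with 1.14 expected in the repressor and 0.974 in the activator screen. Both sorted libraries lay below all unsorted ones for 4 of 7 members in the repressor screen, beside 43% of genes, and for 1 of 7 in the activator screen, beside 32% of genes. They lay above all unsorted ones for 0 of 7 in both screens, beside 4.33% and 4.18% of genes. Repressor sorted replicate 2 held sense insertions of none of the 8 members. Its depth of 15204 was within the range of the other sorted libraries of these screens. Reversed insertions were present in it for Nanos3 (5), Zc3h12a (2), Zfp36 (1) and Rc3h1 (1). Positions on the sense strand but beyond the distance limit were present for Zc3h12a (3) and Rc3h1 (1). Whether depth accounts for the missing sense insertions was not tested. The difference of the sorting effect between the PTGR screen and the mean of the other 2 could be fitted in edgeR for Zc3h12a and Nanos3. Its log2 values of 0.29 and 0.28 had adjusted p-values of 0.934 and 0.910 in edgeR, where 2.96% of genes passed, and both unadjusted p-values were above 0.05.

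The Regnase family has further genes, Zc3h12b, Zc3h12c and Zc3h12d, all in the gene tables. Zc3h12c had 7 and 1 sorted insertions in the PTGR screen against 21 in the background, and Fisher's exact test gave an adjusted p of 0.226. Its log2 odds ratio was 1.70 ± 0.60 (SE), and -0.27 without PTGR sorted replicate 1. Zc3h12b had 2 and 0 such insertions against 2 in the background, which came from activator unsorted replicate 2, and 0 in the PTGR unsorted libraries. In the activator screen it had 1 and 1 sorted insertions, fewer than the 3 that a test required. Zc3h12d had 0 PTGR sorted insertions against 2 in the background.

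The machinery that these proteins are known to recruit was represented in the same screen. Of 29 listed deadenylation and decapping factors 24 were tested and 4 were called, Cnot2, Cnot3, Cnot9 and Pan3, beside 0.666% of all genes tested. This list and the next were chosen with earlier results of these data known. Cnot2 and Cnot3, subunits of the module of CCR4-NOT that contacts regulators, had 154 and 12 sorted insertions where the background held 105 and 7, log2 odds ratios of 3.65 ± 0.18 and 3.87 ± 0.69 (SE). Cnot9, a CCR4-NOT subunit bound by several RNA-binding proteins, had 106 against 47, a log2 odds ratio of 4.27 ± 0.25 (SE). Pan3, the adaptor of the PAN2 deadenylase, had 22 against 40, a log2 odds ratio of 2.23 ± 0.38 (SE). The median over the 24 was 0.07, beside 0.14 over all genes tested. Of 16 other listed RNA-binding regulators of mRNA decay or translation 14 were tested and 0 were called. A log2 odds ratio above 0 was found for 12 of them, beside 5350 of the 9303 genes tested, and their median was 0.31. Cnot3 was called with fewer background insertions than Zfp36 (7 against 31), at a log2 odds ratio of 3.87. A call of Zfp36 would have taken a value of at least 2.23. The part that coverage played was not tested.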

How the data were processed

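Cassette insertions were located by inverse PCR on genomic DNA followed by sequencing. The authors trimmed reads with Trim Galore 0.6.0, aligned them to mm10 with Bowtie2, filtered them with SAMtools 1.9 and assigned each site to the closest exon downstream of it in protein-coding GENCODE transcripts, leaving out first exons. The deposited lists give position, strand and distance per insertion, with no number of reads. Each unique position within 200 kb was taken as 1 insertion, which gave counts per gene. The authors' gene tables hold summed counts, odds ratios and p-values, and the last 2 were not used. Lines repeated in a list, 12.8% in PTGR sorted replicate 2 and 50.0% in the repressor unsorted libraries, were counted once. PTGR sorted sums then equalled those of the authors for 16180 of 20409 genes, and for 20407 with every line counted. The PTGR calls therefore differ from the study's: 62 genes were called here, and 76 with every line counted.

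The members and lists were chosen with earlier results of these data known. Groups came from the sample titles. Fisher's exact tests on summed counts (SciPy 1.17.1) were adjusted by Benjamini-Hochberg over all genes tested, as in the study's methods. edgeR 4.0.16 and DESeq2 1.42.0 (R 4.3.3) used the spread between libraries, and their calls were made at an adjusted p of 0.05. The tests were checked on simulated data. A count of 0 has an upper limit of 3 insertions. All members and their relatives are named, except 1 listed gene that is not reported here, and other listed genes where called in the PTGR screen, and the 3 genes most like the member with the smallest p. Gene coordinates, exons and coding lengths are from GENCODE vM21 on GRCm38, not the release named in the methods, which was not used here. Alternatives varied the background, tool, minimum count, distance, merging, threshold and libraries, and those that combine a change with 50 kb or with the two-sided test were chosen after seeing the data.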

Additional observations from a re-analysis of the deposited data

Results flagged for a closer look

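Zfp36l2 had 0.370 insertions per 10000 in PTGR unsorted replicate 2, farther from the other 5 unsorted libraries (0 to 0.0855 per 10000) than Dixon's test allows for 6 values. The value rests on 2 insertions, fewer than the 3 that a count of 0 allows, and was not followed further. For normally distributed values chance gives such a flag in about 1 of 20 groups, and the 8 members were each examined. That rate does not carry over to counts of 0 to 2 in libraries of unequal depth. The flagged library was the shallowest unsorted one, with 54088 insertions.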

How the results depend on the processing

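The number of members called was 0 for each of the 9 comparisons, counting the reversed assignment once per screen, and stayed 0 in 71 of 72 alternatives. The exception was the limit of 50 kb with an adjusted p of 0.05 in the PTGR screen, with 1 member, Rc3h1 (log2 odds ratio 2.93). Leaving out 1 library left the count at 0 in every comparison in which it was tried. In some alternatives no member could have been called. In the activator and repressor screens, 0 members could be tested without sorted replicate 1 or with a minimum of 10 sorted insertions. The edgeR fits of each screen held 2 members. In the edgeR fits with the replicate number as a block, 0 members were called in each screen and 0 for the difference between screens. In the methods each transduced population was divided into unsorted and sorted cells, so same-numbered libraries may share a transduction, but no source used here ties the numbers to it. Deviations of same-numbered sorted and unsorted libraries correlated at 0.33, 0.06 and -0.03 across genes in the PTGR, activator and repressor screens. Signs of single log2 values were less stable, with 15 of 170 alternatives on the other side of 0. In the PTGR screen Zc3h12a was at -0.17 against its own unsorted libraries, also within 50 kb (-0.17), and at -0.084 in edgeR with library sizes only. Without PTGR sorted replicate 2 Nanos3 was at -0.59 (-0.61 within 50 kb) and Pum2 at -0.20 within 50 kb. Without replicate 1 Zc3h12c was at -0.27, and without replicate 2 at 2.48. With 1 library left out, Pum2 ran from 0.77 to 1.09, Rc3h1 from 0.20 to 1.26, Zc3h12a from 0.25 to 0.60 and Nanos3 from -0.59 to 0.53. In the activator screen Pum2 (main value -0.04) was at 0.074 against its own unsorted libraries, 0.050 with every line counted, 0.13 with positions merged, from -0.50 to 0.26 with 1 library left out and 0.24 in DESeq2. Nanos3 was there at 0.038 in edgeR with and 0.037 without a block, and Zc3h12a ran from -1.0003 to 7.4e-05 with 1 library left out. The cause of these shifts was not tested. Every listed line counted, minimum counts of 1 or 10 and DESeq2 size factors changed no count of members. Counts of 3 to 35 sorted insertions per member limit all of these values.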
